A study of Rattus norvegicus with 9 samples.

Results

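A module of 39 genes for glucose uptake, glycolysis, glycogen and pyruvate oxidation was followed in RNA-seq data from the left ventricle of rats, and all 39 were found by gene name among the 35843 genes of the table. The list was drawn up by function, and it pairs several genes of skeletal and cardiac muscle with the forms used by most other cells. The rats were adult male Sprague-Dawley animals in 3 groups of 3, all sampled at day 28 after chest surgery. Group Sham had the operation without ligation and saline by gavage each day. Group MI had the left anterior descending (LAD) coronary artery tied permanently, a standard way to cause myocardial infarction (MI), and the same saline. Group MI + DAPA (1st d) had the ligation and dapagliflozin (DAPA), an inhibitor of the renal glucose transporter SGLT2, at 1 mg/kg by daily gavage from the first day. The study's methods give the infarct border, with the scar trimmed off, as the main source for its molecular experiments, with the matching site in Sham hearts. For the RNA-seq they name only the left ventricle, and the text elsewhere calls the tissue infarct myocardium, so how much border and infarct each sample held is not known.

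Glucose enters a heart muscle cell through the insulin-responsive carrier GLUT4 and the basal carrier GLUT1, is phosphorylated by hexokinase, and is then either stored as glycogen or split to pyruvate by glycolysis. Pyruvate is reduced to lactate or is carried into the mitochondrion and oxidised by pyruvate dehydrogenase, which the PDK kinases switch off. The adult heart draws most of its energy from fatty acids, whereas fibroblasts, leukocytes and the fetal heart rely more on glucose and use other isoforms of the same enzymes. In a bulk tissue sample, fewer cells of a type and less RNA per cell cannot be told apart.

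Between 13597239 and 17210909 reads per rat were recovered from the deposited values. Transcripts of the mitochondrial genome took 61.1% to 66.9% of them in group Sham, 7.07% to 19.1% in group MI and 17.5% to 32.0% in group MI + DAPA (1st d). Reads at the 39 genes numbered 46748 to 148508 per rat. They made up 0.759% to 0.851% of the reads outside the mitochondrial genome in group Sham, 0.509% to 0.998% in group MI and 0.865% to 1.298% with DAPA. All 5 defining markers of ventricular muscle (Myh6, Myh7, Tnnt2, Tnni3 and Myl2) were present in every rat. The summed FPKM (fragments per kilobase of transcript, scaled for library size) of 16 cardiomyocyte markers was 7623 to 11142 in group Sham, 6482, 2438 and 12014 in MI replicates 1 to 3, and 17351, 19270 and 9231 in the DAPA-treated replicates 1 to 3. MI replicate 2 thus had the lowest level, and the ranges of all 3 groups overlapped. Of these markers, 2 were higher and 3 were lower in MI than in Sham, and none of the 16 passed an adjusted p of 0.05 with DAPA vs. MI (3 were higher at an unadjusted limma p under 0.05). All 16 had a fitted log2 fold change above 0 with DAPA vs. MI, with a median of 1.26. The 10 fibroblast markers summed to 460 to 750 in group Sham, 3839 to 7609 in group MI and 2398 to 4127 with DAPA, and 9 of 10 were higher in MI than in Sham. The macrophage and neutrophil markers summed to 93.3 to 381, 1355 to 2297 and 742 to 1260 in the same order, with 8 of 10 higher in group MI. The 5 endothelial markers summed to 338 to 584 in group Sham, 161 to 204 in group MI and 205 to 249 with DAPA, and 4 of 5 were lower in MI than in Sham. Skeletal muscle markers stayed at a summed 17.0 to 31.3 in all rats. Lymphocyte and plasma cell markers reached 3007 in MI replicate 2 and 529 in MI replicate 3, against 4.75 to 31.2 in the other rats. Red cell markers reached 5780 in Sham replicate 2 against 13.2 to 1304 in the other rats.

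The module was divided after infarction. In group MI vs. group Sham, 12 of the 39 genes were higher and 4 were lower at an adjusted p under 0.05 (limma on log2(FPKM + 1), Benjamini-Hochberg over 13485 genes), against 19.5% of all genes tested higher and 19.5% lower. The 4 lower genes were Pgam2 (phosphoglycerate mutase of muscle), Slc2a4 (GLUT4), Pfkfb1 and Pfkfb2. Of the genes called, Hk3 and Pfkfb1 passed the filter on low values (an FPKM of 1 in 3 or more of the 6 rats) only through the group where they were high, so that their calls follow in part from the filter. The 12 higher genes were Slc2a1 (GLUT1), Hk1, Hk2, Hk3, Pfkl, Pfkp, Pgk1, Pgam1, Pkm, Slc16a3, Pdha1 and Pygb. Of these, Pfkl, Pfkp, Pgam1 and Pygb are forms typical of tissues other than muscle, whereas Hk2 is the hexokinase of muscle. Hk1, found in many tissues, was the most abundant hexokinase in every rat, Sham rats included. The median log2 fold change was 0.24 over the 39 genes and -0.01 over all genes tested. At an unadjusted limma p under 0.05 the counts were 13 higher and 5 lower, against 24.5% and 24.4% of all genes.

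With DAPA, no member passed the test. In MI + DAPA (1st d) vs. MI, 38 members were tested and 0 were called, as were 0 of all 13251 genes (0.0%), the smallest limma p adjusted by Benjamini-Hochberg being 0.558. At an unadjusted limma p under 0.05, 6 members were higher and 0 were lower, against 4.59% and 3.9% of all genes. The 6 were Pgam2, Eno3, Slc2a4 and Pfkm, which are muscle forms, Ldhb, the heart form of lactate dehydrogenase, and Mpc1, a subunit of the mitochondrial pyruvate carrier. Limma-voom on the recovered reads also gave 0 members at an adjusted p under 0.05 and 6 higher at an unadjusted one. A fitted log2 fold change above 0 was found for 33 of 38 members and for 47.2% of all genes, with a median of 0.34 over the members and -0.02 over all genes. The 3 DAPA-treated rats lay entirely above the 3 MI rats for 1 member, Pgam2, against 6.63% of all genes.

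Against group Sham, the DAPA-treated hearts had 20 members higher and 2 lower (adjusted limma p under 0.05, 13359 genes tested), against 14.5% and 14.1% of all genes. The median log2 fold change was 0.65 over the members and 0.01 over all genes. The higher genes were Slc2a1, Slc16a3, Hk1, Hk2, Hk3, Pfkl, Pfkp, Pgk1, Pgam1, Pkm, Ldha, Ldhb, Mpc2, Pdha1, Dlat, Pdk1, Pygb, Gbe1, Pgm1 and Ugp2, and the 2 lower genes were Pfkfb1 and Pfkfb2. As in MI vs. Sham, Hk3 and Pfkfb1 passed the filter only through the group where they were high. With no filter on low values 14 were higher, all among the 20, and Ldha, Ldhb, Slc16a3, Pdk1, Pgm1 and Ugp2 lost their calls (adjusted limma p 0.051 to 0.0706). In the same comparison 9 of 16 cardiomyocyte markers (median log2 fold change 1.00), 9 of 10 fibroblast markers and 7 of 9 macrophage and neutrophil markers tested were higher, and 3 of 5 endothelial markers were lower. Their part in the members' differences was not tested. Slc2a4 was not called here (log2 fold change -0.31, adjusted limma p 0.464), nor was Pgam2 (log2 fold change -0.94, adjusted limma p 0.0654). The comparisons share rats, so that a high or low MI rat moves both of the contrasts with group MI.

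These counts depend on the scaling between libraries and on single rats. When each library was scaled to its summed FPKM, which the mitochondrial transcripts dominate in group Sham, the median of all genes moved to 1.31 in MI vs. Sham and 33 members were higher and 2 lower. When values were taken relative to the mean of the cardiomyocyte markers, 0 members were higher and 1, Pgam2, was lower in group MI than in Sham. The members called higher without this scaling had larger log2 fold changes on it, from 0.89 (Pfkl, 0.58 before) to 2.18 (Hk3, 1.87 before). Those called lower became less negative, at -2.21 (Pgam2) to -1.17 (Slc2a4). The mean log2 marker level had an SD of 1.11 in group MI and 0.23 in Sham. Its part in the lost calls was not tested. With DAPA vs. Sham, 0 were higher and 6 lower on that scale. The median log2 fold change there was 0.55 over the members and 0.31 over all genes for group MI against Sham. For the DAPA-treated rats against Sham it was -0.23 and -0.88, so the members' median stayed above that of all genes both times. The shares of all genes called under these scalings are not given here, so the counts cannot be read as particular to the members.

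**Figure D1:**
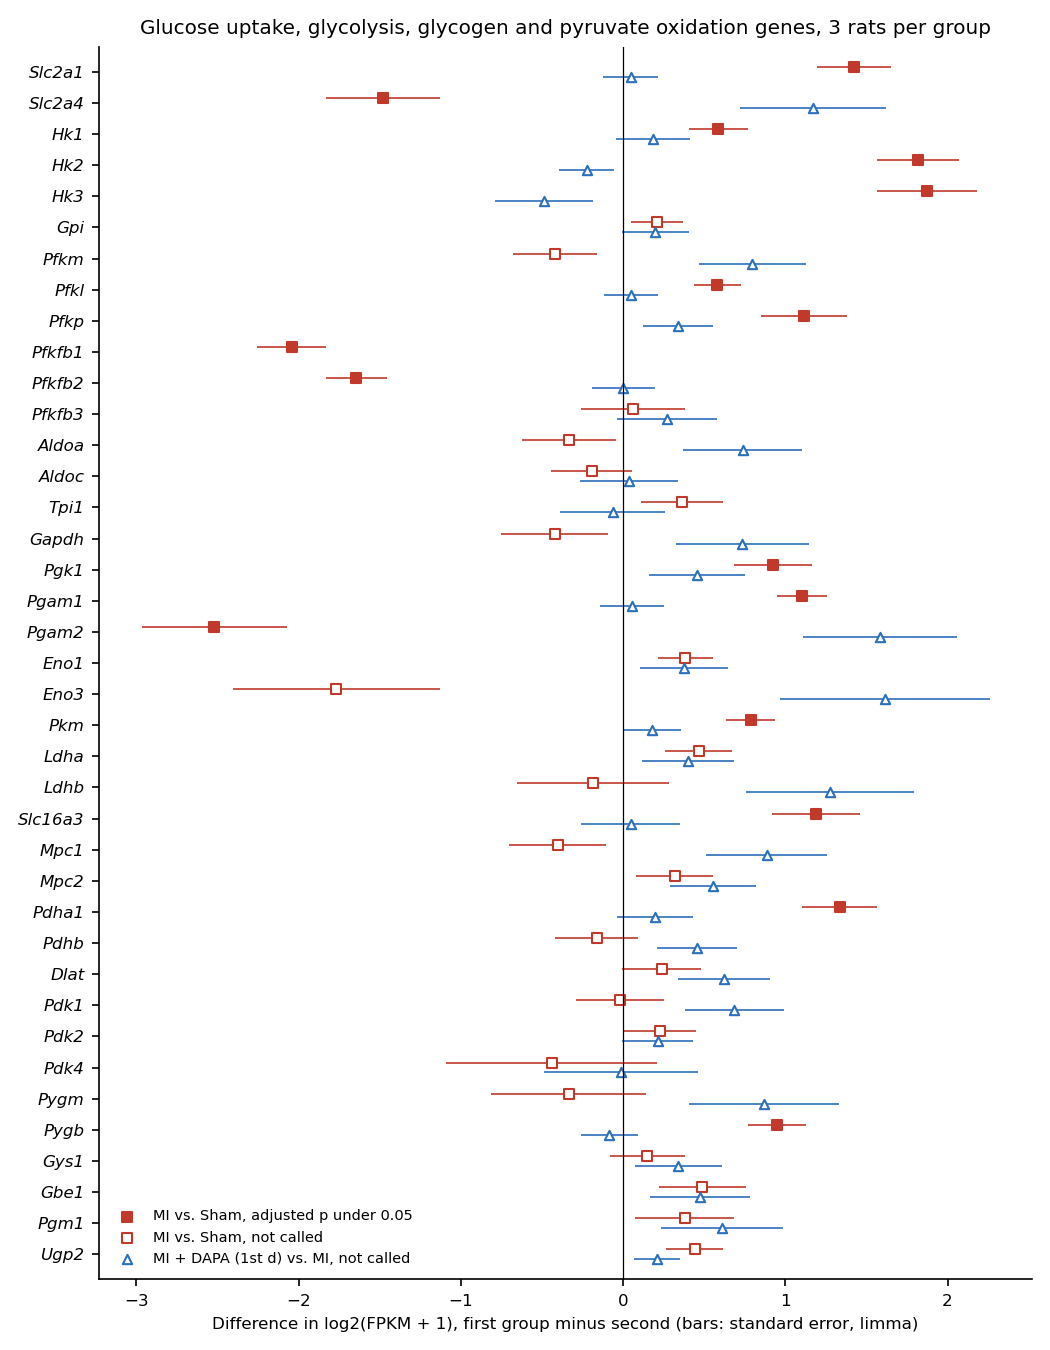
Difference in log2(FPKM + 1) for each of the 39 members (vertical axis, in pathway order) in MI vs. Sham (red squares) and MI + DAPA (1st d) vs. MI (blue triangles), with the limma standard error as bars and filled symbols for an adjusted p under 0.05. Pgam2 lies at -2.52 and Slc2a4 at -1.48 in the first comparison, no triangle is filled, and Pfkfb1 has no triangle because it was not tested in the second.

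The promoters of the phosphoglycerate mutase pair and of Slc2a1 are shown because Pgam2 and Pgam1 moved in opposite directions in group MI and because Slc2a1 was higher there. The sequences are the 250 bases upstream of each annotated start in RefSeq GRCr8, 5′ to 3′ on the gene's strand. Capitals mark TATAAA, the TATA box, in Pgam2, and ACGTG, the core that hypoxia-inducible factors can bind, in the other promoters. The Pgam2 promoter lies at chr14:84897875-84898124 (minus strand), that of Pgam1 at chr1:250672902-250673151 (plus strand) and that of Slc2a1 at chr5:138002272-138002521 (plus strand).
Pgam2: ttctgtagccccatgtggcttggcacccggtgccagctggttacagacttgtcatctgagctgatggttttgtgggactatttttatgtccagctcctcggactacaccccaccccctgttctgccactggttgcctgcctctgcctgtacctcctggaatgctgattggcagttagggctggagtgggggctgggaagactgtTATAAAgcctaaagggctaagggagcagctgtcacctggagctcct
Pgam1: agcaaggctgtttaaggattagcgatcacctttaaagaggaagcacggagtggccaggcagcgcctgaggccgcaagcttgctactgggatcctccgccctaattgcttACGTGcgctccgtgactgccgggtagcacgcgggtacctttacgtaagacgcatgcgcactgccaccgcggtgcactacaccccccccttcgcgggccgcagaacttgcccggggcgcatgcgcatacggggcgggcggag
Slc2a1: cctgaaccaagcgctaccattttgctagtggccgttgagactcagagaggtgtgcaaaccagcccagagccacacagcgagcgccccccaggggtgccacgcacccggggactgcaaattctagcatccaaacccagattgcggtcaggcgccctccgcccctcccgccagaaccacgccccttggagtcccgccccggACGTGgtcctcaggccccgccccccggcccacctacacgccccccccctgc
The capitals begin 46 bases before the start in Pgam2, 141 in Pgam1 and 51 in Slc2a1. Searched on both strands, ACGTG occurred in 17 of the 37 members with a promoter entry (45.9%) and in 16.6% of all 33469 promoters of the same length. Members were counted by gene and all promoters by entry, and the latter were not matched for base composition or expression. Of the members higher in group MI, 5 of 11 held it, close to the 45.9% over all members with an entry. Of the lower members 0 of 3 did, too few genes for a comparison. TATAAA occurred in 3 of 37 members (Gapdh, Pgam2 and Pgm1) and in 12.9% of all promoters. The E-box CANNTG, which shares letters with ACGTG where it reads CACGTG, occurred in 23 of 37 members and in 65.5% of all promoters. A match of letters is no evidence that a factor was bound. Pgk1 and Slc2a4 had no entry.

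Of the 3 transport genes, 2 were higher and 1 was lower in MI than in Sham, against 19.5% of all genes in each direction. Slc2a4 (ENSRNOG00000017226), which encodes the insulin-responsive glucose carrier GLUT4, had an FPKM of 44.0, 45.5 and 47.6 in the Sham rats. It had 17.2, 8.50 and 26.2 in the MI rats and 32.7, 59.8 and 25.2 in the DAPA-treated rats. All MI rats lay below all Sham rats, whereas DAPA-treated replicate 3 lay within the MI range and replicate 2 above every Sham rat. Its log2 fold change was -1.48 in MI vs. Sham (standard error 0.35, adjusted limma p 0.0162) and 1.17 with DAPA vs. MI (standard error 0.45, unadjusted limma p 0.0361, adjusted 0.558). Without Sham replicate 3 the first was -1.45 with an adjusted limma p of 0.0535, and scaled to summed FPKM it was 0.02 against a median of 1.31 over all genes. Slc2a1 (ENSRNOG00000007284), the basal carrier GLUT1 of most cell types, stood at 2.99, 1.65 and 1.40 FPKM in group Sham. The MI rats had 6.77, 6.40 and 7.53, and the DAPA-treated rats 8.84, 5.81 and 7.06. Both infarcted groups lay above group Sham without overlap and overlapped with each other. The log2 fold change of Slc2a1 was 1.42 in MI vs. Sham (standard error 0.23, adjusted limma p 0.00407) and 0.05 with DAPA vs. MI (adjusted limma p 0.932). Slc16a3 (ENSRNOG00000036677), the lactate exporter MCT4, rose from 1.87, 0.863 and 1.22 FPKM to 6.06, 3.17 and 3.75 in group MI. It stood at 6.10, 2.67 and 4.90 with DAPA. Its log2 fold change in MI vs. Sham was 1.19 (adjusted limma p 0.0141), and without MI replicate 1 it was 0.96 (adjusted limma p 0.0512).

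The ratio of GLUT4 to GLUT1 transcripts within a library does not depend on how libraries are scaled. Slc2a4 exceeded Slc2a1 by 14.7-, 27.5- and 33.9-fold in the Sham rats, by 2.54-, 1.33- and 3.48-fold in the MI rats and by 3.70-, 10.3- and 3.57-fold in the DAPA-treated rats. The groups did not overlap in any of the 3 comparisons, although DAPA-treated replicates 1 and 3 lay just above the highest MI rat. The mean log2 ratio was 4.58 ± 0.63, 1.18 ± 0.71 and 2.36 ± 0.87 (SD, n = 3 each, in the order Sham, MI, DAPA). The difference with DAPA was 1.18 (standard error 0.65; two-sided exact permutation p 0.1, the smallest that 3 rats against 3 allow).

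Upper glycolysis runs from hexokinase to the triose phosphates. In MI vs. Sham, 5 of its 13 members were higher and 2 were lower, against 19.5% of all genes in each direction. Hk2 (ENSRNOG00000006116), the insulin-regulated hexokinase of muscle, was low in group Sham at 2.37, 1.40 and 0.815 FPKM. It reached 6.58, 8.33 and 8.11 in the MI rats and 7.64, 5.23 and 6.49 with DAPA, without overlap between either group and Sham. The log2 fold change of Hk2 was 1.82 in MI vs. Sham (standard error 0.25, adjusted limma p 0.00264). Hk1 (ENSRNOG00000046891), the form of brain and many other tissues, was the most abundant hexokinase in every rat, at 18.2, 17.8 and 17.1 FPKM in group Sham, 28.9, 21.1 and 32.5 in group MI and 40.2, 26.6 and 27.6 with DAPA. All infarcted rats exceeded all Sham rats. Its log2 fold change in MI vs. Sham was 0.59 (adjusted limma p 0.0384), a call lost when any rat other than MI replicate 2 was left out (largest adjusted limma p 0.12, log2 fold change at least 0.46) and with no filter on low values (adjusted limma p 0.0591). Hk3 (ENSRNOG00000026235), the hexokinase of leukocytes, had 0.175, 0.505 and 0 FPKM in group Sham, 2.01, 4.08 and 4.68 in group MI and 2.26, 1.41 and 3.00 with DAPA. Its adjusted limma p in MI vs. Sham was 0.00443. The Hk2 to Hk1 log2 ratio averaged -3.67 ± 0.73 in Sham, -1.83 ± 0.43 in MI and -2.28 ± 0.17 in DAPA-treated rats (SD, n = 3 each). Both infarcted groups lay above Sham without overlap (two-sided exact permutation p 0.1 for each) and overlapped with each other (exact permutation p 0.2).

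Phosphofructokinase sets the pace of glycolysis. Pfkm (ENSRNOG00000057988), its muscle subunit, had 23.3, 31.2 and 25.1 FPKM in group Sham, 18.5, 13.9 and 28.3 in group MI and 28.8, 51.9 and 27.2 with DAPA. All groups overlapped, and the log2 fold change was -0.42 in MI vs. Sham (adjusted limma p 0.237) and 0.80 with DAPA vs. MI (unadjusted limma p 0.0471). The platelet-type subunit Pfkp (ENSRNOG00000017163) stood at 9.77, 4.93 and 4.74 FPKM in group Sham, 13.6, 13.4 and 16.6 in group MI and 22.8, 13.4 and 20.8 with DAPA. The liver-type subunit Pfkl (ENSRNOG00000001214) stood at 13.3, 14.8 and 12.7, then 23.0, 21.0 and 18.5, then 26.0, 19.3 and 19.7 FPKM. Both were above group Sham in every infarcted rat, with log2 fold changes in MI vs. Sham of 1.11 for Pfkp (adjusted limma p 0.016) and 0.58 for Pfkl (adjusted limma p 0.0188). Each of these calls was lost in 3 of the 6 fits with a rat left out (largest adjusted limma p 0.0536 for Pfkp and 0.08 for Pfkl). The Pfkm to Pfkl log2 ratio averaged 0.96 ± 0.14 in Sham, -0.10 ± 0.63 in MI and 0.68 ± 0.67 in DAPA-treated rats (SD, n = 3 each). The Pfkm to Pfkp log2 ratio was 2.11 ± 0.75, 0.42 ± 0.36 and 0.89 ± 0.92 in the same order. Both ratios were lower in every MI rat than in every Sham rat (two-sided exact permutation p 0.1) and overlapped between the DAPA-treated and MI rats (exact permutation p 0.3 and 0.7).

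The bifunctional PFKFB enzymes make and break fructose 2,6-bisphosphate, the activator of phosphofructokinase. Pfkfb2 (ENSRNOG00000004162), the heart isoform, had 5.51, 7.54 and 7.83 FPKM in the Sham rats, 1.35, 1.59 and 1.64 in the MI rats and 1.35, 2.06 and 1.23 with DAPA. The infarcted groups overlapped with each other and lay far below group Sham. Its log2 fold change was -1.65 in MI vs. Sham (standard error 0.19, adjusted limma p 0.00148) and 0.00 with DAPA vs. MI (standard error 0.20, adjusted limma p 0.998). Pfkfb1 (ENSRNOG00000000165), the isoform of liver and skeletal muscle, had 3.48, 4.19 and 5.17 FPKM in group Sham, and at most 0.367 FPKM in any infarcted rat. It was not tested between the infarcted groups. Pfkfb3 (ENSRNOG00000018911), the inducible isoform, ranged from 8.23 to 21.8 FPKM in group Sham, from 12.3 to 13.3 in group MI and from 10.5 to 26.7 with DAPA, with no call. The Pfkfb2 to Pfkfb3 log2 ratio averaged -0.83 ± 0.73 in Sham, -3.09 ± 0.19 in MI and -3.38 ± 1.05 in DAPA-treated rats (SD, n = 3 each). Both infarcted groups were below Sham without overlap (two-sided exact permutation p 0.1 each), and they overlapped with each other (exact permutation p 0.7).

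The other members of upper glycolysis were not called in any comparison. Gpi, glucose-6-phosphate isomerase, ranged from 103 to 184 FPKM over all 9 rats, and Aldoa, the main aldolase of muscle, from 277 in MI replicate 2 to 873 in DAPA-treated replicate 2. Aldoc, the brain aldolase, ranged from 2.35 to 5.47 FPKM. The Aldoa to Aldoc log2 ratio averaged 6.96 ± 0.19 in Sham, 6.88 ± 0.03 in MI and 7.57 ± 0.23 in DAPA-treated rats (SD, n = 3 each). Every DAPA-treated rat lay above every MI and Sham rat in this ratio (two-sided exact permutation p 0.1 for each comparison). Tpi1, triosephosphate isomerase, was at 0.862 to 3.27 FPKM, or 11 to 78 reads. That level is uncertain, since reads shared with near-identical gene copies could have been dropped in counting.

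**Figure D2:**
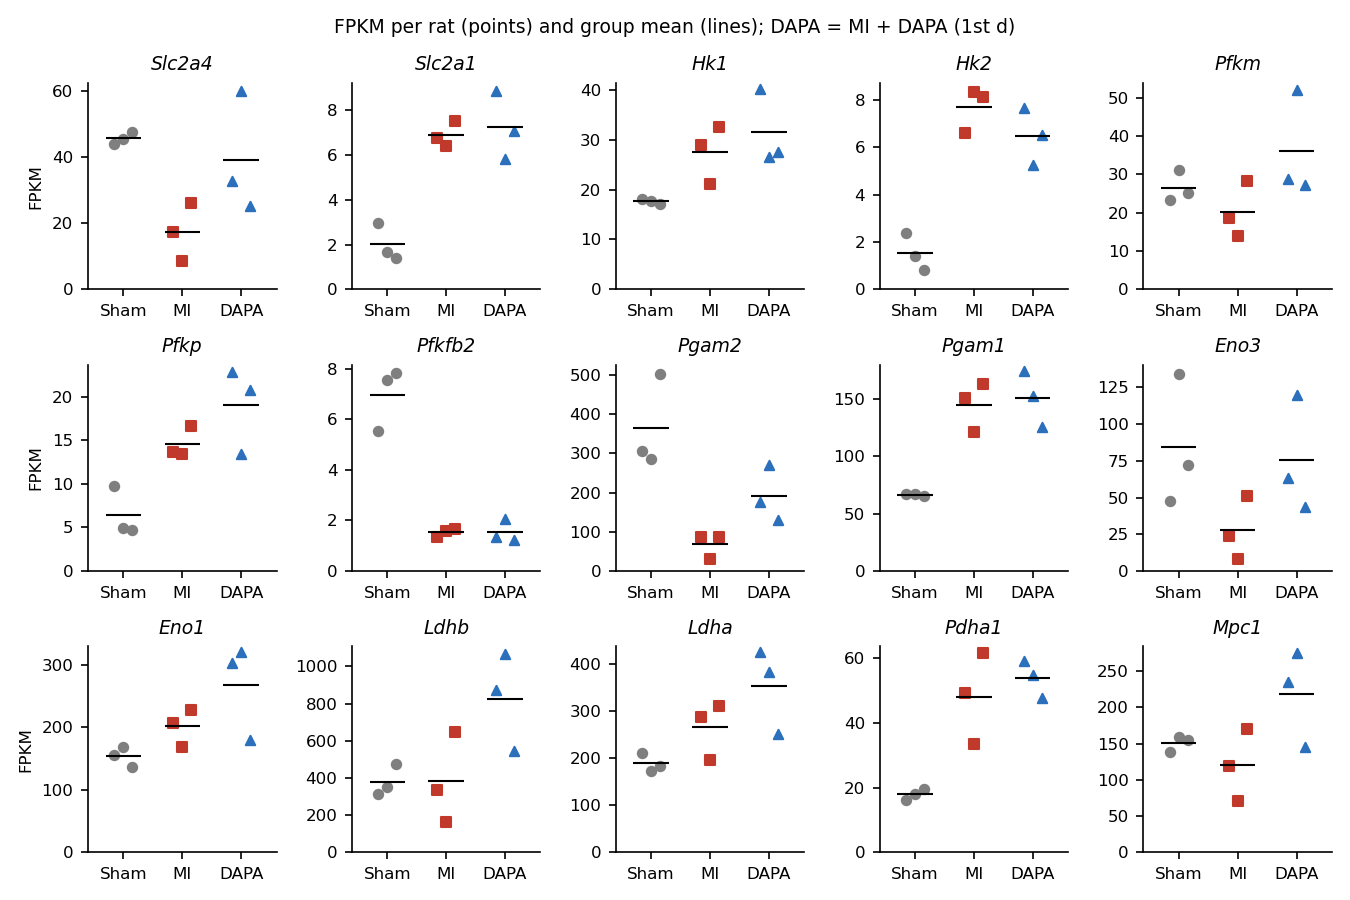
FPKM (vertical axes, from 0) of 15 members in each rat (points) with the group mean (line), for Sham (grey circles), MI (red squares) and MI + DAPA (1st d) (blue triangles, labelled DAPA). Slc2a4, Pgam2 and Pfkfb2 are lower in all MI rats than in all Sham rats, Slc2a1, Hk2, Pgam1 and Pdha1 are higher, and the DAPA-treated rats overlap with the MI rats in all panels but that of Pgam2.

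In lower glycolysis and the lactate step, 3 of 9 members were higher and 1 was lower in group MI. The share of all genes was 19.5% in each direction. Pgam2 (ENSRNOG00000013532), the muscle phosphoglycerate mutase, had 307, 285 and 504 FPKM in the Sham rats, 86.5, 29.3 and 87.7 in the MI rats and 177, 270 and 131 in the DAPA-treated rats. The 3 groups were fully separated, with the DAPA-treated rats between the other groups. Its log2 fold change was -2.52 in MI vs. Sham (standard error 0.45, adjusted limma p 0.00563) and 1.58 with DAPA vs. MI (standard error 0.47, unadjusted limma p 0.0127, adjusted 0.558). The call in MI vs. Sham was kept with each rat left out, at -2.78 to -2.01. Relative to the cardiomyocyte markers the log2 fold change was -2.21 in MI vs. Sham (adjusted limma p 0.0353) and 0.39 with DAPA vs. MI. Pgam1 (ENSRNOG00000050585), the form of most other tissues, had 66.6, 67.2 and 65.7 FPKM in group Sham, 151, 121 and 163 in group MI and 174, 153 and 125 with DAPA. Both infarcted groups were above Sham and overlapped with each other, with a log2 fold change of 1.10 in MI vs. Sham (standard error 0.15, adjusted limma p 0.0026) and 0.05 with DAPA vs. MI.

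The pair therefore changed places in group MI. Pgam2 was 4.61-, 4.24- and 7.66-fold above Pgam1 in the Sham rats, and 0.573-, 0.242- and 0.538-fold of Pgam1 in the MI rats. It stood at 1.01-, 1.77- and 1.04-fold of Pgam1 in the DAPA-treated rats. No group overlapped with another. The mean log2 ratio averaged 2.41 ± 0.46 in Sham, -1.25 ± 0.69 in MI and 0.30 ± 0.45 in DAPA-treated rats (SD, n = 3 each), and the difference with DAPA was 1.55 (standard error 0.48, two-sided exact permutation p 0.1). Leaving out single rats gave 1.15 to 1.77, the lowest without MI replicate 2.

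Eno3 (ENSRNOG00000004078), the muscle enolase, varied widely, with 47.7, 134 and 71.8 FPKM in group Sham, 23.9, 8.36 and 51.1 in group MI and 63.2, 120 and 43.9 with DAPA. The highest MI rat lay above the lowest Sham and DAPA-treated rats. The log2 fold change was -1.77 in MI vs. Sham (standard error 0.64, unadjusted limma p 0.0268, adjusted 0.0636) and 1.61 with DAPA vs. MI (standard error 0.65, unadjusted limma p 0.0417). Eno1, the common enolase, ranged from 137 to 168 FPKM in group Sham, 168 to 228 in group MI and 179 to 320 with DAPA, and was not called. The Eno3 to Eno1 log2 ratio averaged -0.99 ± 0.69 in Sham, -3.20 ± 1.09 in MI and -1.90 ± 0.44 in DAPA-treated rats (SD, n = 3 each). The MI rats lay below the Sham rats without overlap (two-sided exact permutation p 0.1) and overlapped with the DAPA-treated rats (exact permutation p 0.2).

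Ldhb (ENSRNOG00000013000), the lactate dehydrogenase subunit typical of heart, had 313, 353 and 473 FPKM in group Sham, 334, 164 and 648 in group MI and 873, 1065 and 543 with DAPA. The MI rats spanned the Sham range, and DAPA-treated replicate 3 lay below the highest MI rat. Its log2 fold change was -0.19 in MI vs. Sham (adjusted limma p 0.779), 1.28 with DAPA vs. MI (unadjusted limma p 0.0445) and 1.09 with DAPA vs. Sham (adjusted limma p 0.0308). The last call was lost without any one of Sham replicates 1 and 2 and DAPA-treated replicates 1 and 2 (adjusted limma p 0.0792 to 0.1). Ldha (ENSRNOG00000013009), the subunit typical of skeletal muscle and glycolytic tissues, had 211, 172 and 184 FPKM in group Sham, 288, 197 and 312 in group MI and 425, 383 and 251 with DAPA. It was called higher with DAPA vs. Sham (log2 fold change 0.87, adjusted limma p 0.0298) and lost this call in 5 of 6 fits with a rat left out. The Ldhb to Ldha log2 ratio averaged 0.99 ± 0.40 in Sham, 0.33 ± 0.67 in MI and 1.21 ± 0.23 in DAPA-treated rats (SD, n = 3 each), and overlapped in all comparisons.

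Pgk1, phosphoglycerate kinase, rose from 76.3 to 88.0 FPKM in group Sham to 110 to 209 in group MI, with a log2 fold change of 0.92 (adjusted limma p 0.0215). That call was lost without MI replicate 1 or 3 or Sham replicate 2 or 3 (adjusted limma p 0.0518 to 0.0721). Pkm, pyruvate kinase of muscle and of most other cells, rose from 89.3 to 109 FPKM to 155 to 191, with a log2 fold change of 0.79 (adjusted limma p 0.00748). The deposited values do not separate the Pkm splice forms. Gapdh ranged from 422 FPKM in MI replicate 2 to 1423 in DAPA-treated replicate 2 and was not called in any comparison. Gapdh and other abundant glycolytic genes have processed copies in rodent genomes, and how reads were assigned among copies is not given in the sources used here.

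**Figure D3:**
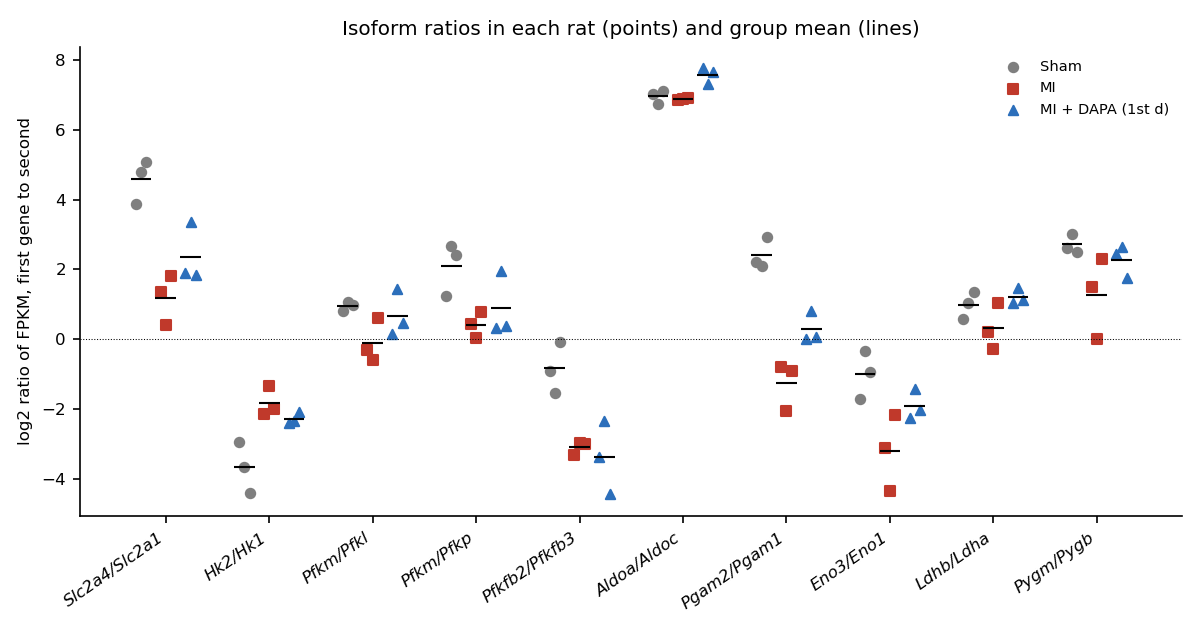
Log2 ratio of FPKM (vertical axis) of the first to the second gene of 10 isoform pairs in each rat (points) with the group mean (line). The Pgam2/Pgam1 ratio averages 2.41 in Sham, -1.25 in MI and 0.30 in MI + DAPA (1st d) without overlap, while the Pfkfb2/Pfkfb3 and Hk2/Hk1 ratios of the infarcted groups overlap.

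Across the 10 isoform pairs, group MI was separated from group Sham without overlap in 8, with the ratio lower in 7 and higher in 1 (Hk2 to Hk1). The exceptions were Aldoa/Aldoc and Ldhb/Ldha. Pfkm/Pfkl and Pfkm/Pfkp, both among the 7, share Pfkm and are not independent. Of all single genes tested, 27.1% lay higher and 27.5% lower without overlap in this comparison. The DAPA-treated and MI rats were separated in 3 of 10, all with the ratio higher with DAPA: Slc2a4/Slc2a1, Aldoa/Aldoc and Pgam2/Pgam1. Of all single genes, 6.63% lay higher and 7.16% lower without overlap there, and the same share was not computed for ratios of other gene pairs. Over the 30 tests the smallest exact permutation p was 0.1 before and 0.188 after Benjamini-Hochberg adjustment. With 3 rats per group this exact test cannot reach 0.05.

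Of the 8 genes of pyruvate import and oxidation, 1 was higher in group MI and 0 were lower, against 19.5% of all genes each way. Pdha1 (ENSRNOG00000025383), the catalytic alpha subunit of pyruvate dehydrogenase, had 16.1, 18.1 and 19.7 FPKM in the Sham rats. It had 49.3, 33.4 and 61.4 in the MI rats and 59.0, 54.9 and 47.6 in the DAPA-treated rats. All infarcted rats exceeded all Sham rats. The log2 fold change was 1.33 in MI vs. Sham (standard error 0.23, adjusted limma p 0.0052) and 1.53 with DAPA vs. Sham (standard error 0.16, adjusted limma p 0.00182). Its partner subunit Pdhb did not follow, at 32.0 to 44.5 FPKM in group Sham, 25.4 to 49.0 in group MI and 42.0 to 53.2 with DAPA (log2 fold change -0.16 in MI vs. Sham, adjusted limma p 0.643). Dlat, the acetyltransferase of the complex, was at 13.9 to 16.1, 12.2 to 24.4 and 21.1 to 32.7 FPKM, and was called only with DAPA vs. Sham (log2 fold change 0.86, adjusted limma p 0.0183, lost in 4 of 6 fits with a rat left out).

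The mitochondrial pyruvate carrier is made of Mpc1 and Mpc2. Mpc1 (ENSRNOG00000012415) had 138, 159 and 155 FPKM in group Sham, 120, 71.5 and 171 in group MI and 235, 275 and 145 with DAPA. The highest MI rat lay above the lowest DAPA-treated rat. The log2 fold change of Mpc1 was -0.40 in MI vs. Sham (adjusted limma p 0.32) and 0.89 with DAPA vs. MI (unadjusted limma p 0.0498). Mpc2 ranged from 108 to 137, 115 to 212 and 197 to 280 FPKM and was higher with DAPA vs. Sham (log2 fold change 0.87, adjusted limma p 0.0159, and 0.0528 without DAPA-treated replicate 1). Of the inhibitory kinases, Pdk1 was at 17.5 to 18.4 FPKM in group Sham, 11.2 to 24.9 in group MI and 22.6 to 33.2 with DAPA, and was higher with DAPA vs. Sham (log2 fold change 0.67, adjusted limma p 0.0324, lost in 5 of 6 fits with a rat left out). Pdk2, at 11.01 to 20.3 FPKM over all rats, was not called. Pdk4, which is induced by fatty acids and fasting, spread from 2.67 to 21.4 FPKM within group Sham alone, from 2.74 to 8.29 in group MI and from 3.16 to 10.5 with DAPA, and was not called. Its highest value was in Sham replicate 2, the rat with the highest red cell markers.

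Among the 6 glycogen genes, 1 was higher in group MI and 0 were lower, against 19.5% of all genes in each direction. Pygb (ENSRNOG00000007583), the brain-type glycogen phosphorylase, had 4.12, 5.47 and 5.09 FPKM in group Sham, 8.70, 12.2 and 10.4 in group MI and 8.80, 8.90 and 11.6 with DAPA. Every infarcted rat exceeded every Sham rat, with a log2 fold change of 0.95 in MI vs. Sham (standard error 0.18, adjusted limma p 0.00718). Pygm (ENSRNOG00000021090), the muscle-type phosphorylase, had 25.4, 44.6 and 28.9 FPKM in group Sham, 24.8, 12.3 and 51.4 in group MI and 47.6, 55.5 and 38.9 with DAPA. It was not called, with log2 fold changes of -0.33 in MI vs. Sham and 0.87 with DAPA vs. MI (adjusted limma p 0.609 and 0.568). The Pygm to Pygb log2 ratio averaged 2.72 ± 0.27 in Sham, 1.28 ± 1.16 in MI and 2.27 ± 0.47 in DAPA-treated rats (SD, n = 3 each). It reached 0.01 in MI replicate 2 against 2.31 in MI replicate 3, and the MI rats lay below the Sham rats without overlap (two-sided exact permutation p 0.1).

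Storage of glucose as glycogen uses Pgm1, Ugp2, Gys1 (muscle glycogen synthase) and the branching enzyme Gbe1. Gys1 ranged from 5.19 to 12.5 FPKM over all rats and was not called. Pgm1, Ugp2 and Gbe1 were not called in MI vs. Sham but were higher with DAPA vs. Sham, with log2 fold changes of 0.99, 0.65 and 0.96 (adjusted limma p 0.0234, 0.0358 and 0.0172). Pgm1 stood at 19.3, 22.0 and 19.4 FPKM in group Sham and at 56.4, 43.5 and 28.1 with DAPA, and its MI rats ranged from 16.0 to 40.2. The calls of Pgm1 and Ugp2 were lost in 4 of 6 fits with a rat left out and that of Gbe1 in 2.

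MI replicate 2 was the lowest of the 3 MI rats in 32 of the 39 members and the lowest of all 9 rats in 15. MI replicate 3 was the highest MI rat in 30, and DAPA-treated replicate 3 the lowest DAPA-treated rat in 27. The summed cardiomyocyte markers had the same order in group MI, with replicate 2 lowest and replicate 3 highest, and replicate 3 was also lowest among the DAPA-treated rats. Relative to the mean of those markers, the log2 fold change with DAPA vs. MI was 0.42 for Eno3, 0.39 for Pgam2, 0.08 for Ldhb, -0.03 for Slc2a4, -0.31 for Mpc1 and -0.40 for Pfkm, the last 3 being below 0, against a median of -1.22 over all genes on that scale. Whether the share of cardiomyocytes in the samples set these differences was not tested. The number of members higher with DAPA vs. MI at an unadjusted limma p under 0.05 was 6 with all rats, 1 without MI replicate 1, 1 without MI replicate 2, 14 without MI replicate 3, and 1, 2 and 12 without DAPA-treated replicates 1, 2 and 3. In MI vs. Sham, the 12 higher members were 7 without MI replicate 1, and the 4 lower members were 2 without Sham replicate 3. In MI + DAPA (1st d) vs. Sham, the 20 higher members were 7 and 13 without DAPA-treated replicates 1 and 2, and 13 and 11 without Sham replicates 1 and 3. The 2 lower members there were 4 without DAPA-treated replicate 2 and 1 without any of the Sham rats, since Pfkfb1 was then no longer tested.

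**Figure D4:**
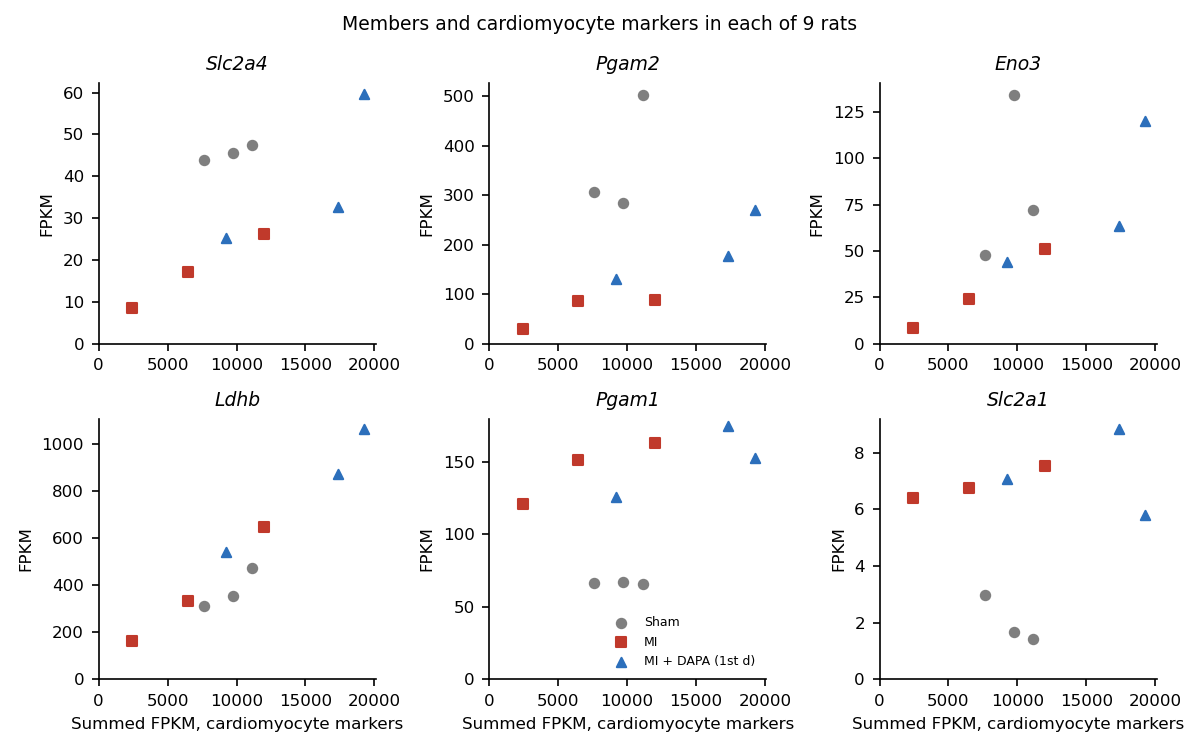
FPKM of 6 members (vertical axes) against the summed FPKM of 16 cardiomyocyte markers (horizontal axes) in each of 9 rats, for Sham (grey circles), MI (red squares) and MI + DAPA (1st d) (blue triangles). The MI rats lie at 2438, 6482 and 12014 on the horizontal axis and rank in this order for all 6 members. For Pgam1 and Slc2a1, every infarcted rat also lies above every Sham rat.

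Other genes of glucose metabolism that are not among the 39 were taken from a list of 62, of which 59 were found and 46 tested in MI vs. Sham. Of these, 6 were higher and 5 were lower in group MI (adjusted limma p under 0.05), against 19.5% of all genes in each direction. Their median log2 fold change was -0.04. The higher ones with the largest change were Slc16a1 (the lactate carrier MCT1, log2 fold change 1.42), Pygl (the liver-type glycogen phosphorylase, 1.35), Gyg1 (glycogenin, the primer of glycogen, 1.20) and Pdk3 (0.85). The 5 lower ones were Ldhd (D-lactate dehydrogenase, log2 fold change -1.04), Pgm2 (-0.84), Pck2 (mitochondrial phosphoenolpyruvate carboxykinase, -0.78), Tigar (-0.70) and Phkg2 (a catalytic subunit of phosphorylase kinase, -0.69), the last named after its value was seen. With DAPA vs. MI, 0 of 47 passed an adjusted limma p of 0.05. At an unadjusted limma p under 0.05, 3 were higher and 1 was lower, against 4.59% and 3.9% of all genes. With DAPA vs. Sham, 6 of 46 were higher and 2 were lower at an adjusted limma p under 0.05, against 14.5% and 14.1% of all genes. Slc5a2, which encodes SGLT2, the target of dapagliflozin in the kidney, was named after its values were seen. It had 0.651 to 1.19 FPKM in group Sham (16 to 25 reads), 0.151 to 0.458 in group MI (7 to 21 reads) and 0.152 to 0.286 with DAPA (6 to 11 reads), too low to be tested.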

How the data were processed

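The table holds 1 column per rat for 35843 genes, and all 9 columns were matched to samples by name, so that 0 columns were left out. The deposited FPKM values are gene-length and library-size normalised by the authors, from paired-end reads of poly-A selected libraries. The library size used is not stated in the sources used here and did not follow the total of recovered reads. Hk2 had 2.37 FPKM from 135 reads in Sham replicate 1, a library of 16899773 recovered reads. In MI replicate 1, a library of 15565791, it had 6.58 FPKM from 691 reads. Outside the mitochondrial genome, FPKM summed to between 371674 and 443487 in all 9 rats. HISAT2 2.0.5, StringTie 1.3.3b, featureCounts 1.5.0-p3 and DESeq2 are named in the submitters' processing notes, and the genome build is not given in the sources used here. Sample titles list a pair of names per rat whose meaning is not stated. A gene's FPKM values step by the worth of 1 read. From these steps whole reads (tolerance 0.02 reads) came out for 100% of the 18896 genes detected in 4 or more libraries, all 39 members among them, up to a divisor common to a gene. Reads carry no molecular identifiers.

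Because FPKM are no counts, groups were compared 2 at a time with limma 3.58.1 (R 4.3.3) on log2(FPKM + 1) with a trended prior, for genes that reached an FPKM of 1 in 3 or more of the 6 rats. Fold changes on this scale understate changes of low genes. Genes were called at a Benjamini-Hochberg adjusted p under 0.05 over all genes tested, whereas the study's own rule was p under 0.05 with a log2 change beyond 1 in size. The isoform ratios were compared with two-sided exact permutation tests (scipy 1.17.1), whose smallest p is 0.1. The test was run on simulated data first. Members, gene lists, isoform pairs and the rule for named genes were chosen with earlier results of these data known. By that rule, values per rat are given for the 10 called members with the largest change in MI vs. Sham, for isoform pairs with a called gene, for the 6 members with the smallest p with DAPA vs. MI and for members under an FPKM of 1 in most rats, and up to 4 other pathway genes are named in each direction. The alternatives were a pseudocount of 0.1, no filter, other scalings, all 9 rats in 1 fit, a replicate block, no trend, voom on the recovered reads, the study's rule and each rat left out in turn. Promoters were read from RefSeq GRCr8, in which 37 of the 39 members matched by symbol. No reads, alignments or proteins were used here. Python 3.11.15, numpy 2.4.6, pandas 2.3.3 and matplotlib 3.10.9 were used for summaries and plots.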

Additional observations from a re-analysis of the deposited data

How the results depend on the processing

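In MI vs. Sham, the 12 higher and 4 lower members became 33 and 2 when libraries were scaled to summed FPKM, 0 and 1 relative to the cardiomyocyte markers, and 7 higher by the study's rule. Here and below that rule means its cut-offs on the limma fit, not the study's DESeq2 test. With single rats left out they ranged from 7 to 13 and from 2 to 5. In MI + DAPA (1st d) vs. MI, the study's rule gave 4 higher members, while the count at an adjusted p under 0.05 stayed at 0 under all other alternatives. The 6 members higher at an unadjusted limma p under 0.05 became 2 with no filter, 3 scaled to summed FPKM, 10 with all 9 rats in 1 fit and 0 relative to the cardiomyocyte markers, where 1 was lower, and 1 to 14 with single rats left out, with 0 to 1 lower. In MI + DAPA (1st d) vs. Sham, the 20 higher members became 14 with no filter, 35 scaled to summed FPKM, 0 relative to the cardiomyocyte markers and 9 by the study's rule, and 7 to 20 with single rats left out. The 2 lower became 6 relative to the cardiomyocyte markers, 3 when scaled outside the mitochondrial genome or with voom, and 1 to 4 with single rats left out. Scaling to summed FPKM moved the median of all genes to 1.31, -0.35 and 0.99 in the 3 comparisons in turn. Taking values relative to the cardiomyocyte markers moved it to 0.31, -1.22 and -0.88. In MI vs. Sham, the members called higher without this scaling lay at log2 fold changes of 0.89 to 2.18 on it, with no call. The shares of all genes called under these scalings are not given here. The genes named next for the marker scale changed sign there but lay above the median of all genes. A change of sign was found for Slc2a4 in MI vs. Sham scaled to summed FPKM (0.017) and, relative to the cardiomyocyte markers, for Slc2a4 (-0.028), Pfkm (-0.40) and Mpc1 (-0.31) with DAPA vs. MI, and for Hk1 (-0.11), Pfkl (-0.26), Ldha (-0.019), Mpc2 (-0.012), Dlat (-0.026), Pdk1 (-0.22), Pygb (-0.020) and Ugp2 (-0.23) with DAPA vs. Sham. With 1 added to each FPKM, the difference in log2 ratio fell to 1.23 for Hk2/Hk1 and to -1.71 for Pfkfb2/Pfkfb3 in MI vs. Sham and to 0.82 for Hk2/Hk1 with DAPA vs. Sham, as low genes are compressed by construction. Apart from that construction, the cause of these shifts was not tested.

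Rats with the same replicate number did not deviate together consistently, with correlations of -0.30 to 0.03 between groups MI and MI + DAPA (1st d), -0.0081 to 0.073 between Sham and MI, and 0.12, 0.19 and -0.0030 between Sham and MI + DAPA (1st d). Not every pair exceeded 0.1 in any comparison, so the numbers were not taken to pair the rats. With the number as a replicate block, 11 members were higher and 4 lower in MI vs. Sham, 1 was higher at an unadjusted p under 0.05 with DAPA vs. MI, and 20 were higher and 2 lower with DAPA vs. Sham. Group Sham had the fewest reads outside the mitochondrial genome, 5702454 to 6570698 against 11440726 to 13171891 in the infarcted groups. The ratio of the medians of MI to Sham was 1.98. Low members such as Hk2 and Slc16a3 had the fewest reads in group Sham, through both this depth and their lower FPKM. Hk2 had 39 to 135 reads there and 691 to 844 in group MI, and Slc16a3 19 to 42 and 120 to 251.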

Other observations

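Of 30 genes that regulate glucose use, listed with earlier results of these data known, 29 were found and 26 tested. In MI vs. Sham, 9 were higher and 6 were lower at an adjusted limma p under 0.05, against 19.5% of all genes in each direction. Irs1, an adaptor of the insulin receptor, was at 0.303 to 0.327 FPKM in the Sham rats, 3.28, 3.45 and 2.68 in the MI rats and 1.91, 1.15 and 2.86 with DAPA (log2 fold change 1.65 in MI vs. Sham, adjusted limma p 0.00157). It passed the filter on low values only through the infarcted rats. The insulin receptor gene Insr rose from 1.12 to 1.73 FPKM to 2.91 to 3.23 in group MI (log2 fold change 0.72, adjusted limma p 0.0214), and Akt2, a kinase of insulin signalling, from between 17.96 and 27.8 FPKM to between 33.6 and 40.7 (log2 fold change 0.76, adjusted limma p 0.0206). Irs2, Vhl, Mlxip, Myc, Foxo1, Mef2a and Hif1a also lay higher in group MI without overlap. The remaining genes found fell or did not separate. Tbc1d4 was at 3.41 to 5.55 FPKM in group Sham and 2.82 to 3.13 in group MI. Tbc1d1 was at 10.9 to 11.9 and 6.93 to 7.72 in the same order. Akt1 overlapped, at 75.8 to 91.6 and 77.9 to 81.9. Prkaa1, Prkab1 and Prkag1 also lay lower in group MI without overlap. All of these named genes were chosen after their values were seen. Hif1a, the hypoxia-inducible factor, was higher in group MI (log2 fold change 1.09, adjusted limma p 0.0227), and its relative Epas1 was lower (log2 fold change -0.96, adjusted limma p 0.0177). With DAPA vs. MI, 0 of 26 passed at either an adjusted or an unadjusted limma p under 0.05. With DAPA vs. Sham 4 were higher and 2 lower at an adjusted one, against 14.5% and 14.1% of all genes.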
